A study of Homo sapiens with 9 samples.

Results

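The response of BEAS-2B cells to electronic cigarette (EC) aerosol condensate was read from 6 RNA sequencing libraries, 3 of untreated control cells and 3 of cells exposed for 24 h, out of 9 libraries in the series. BEAS-2B is a line of immortalised human bronchial epithelial cells, grown in serum-containing medium in every group. The EC condensate was added at 2% (v/v) and came from a liquid of propylene glycol, glycerol, nicotine at 18 mg/mL and Virginia tobacco flavor. The other 3 libraries came from cells exposed for 24 h to 2% (v/v) condensate of the carriers alone (PG/VG), without nicotine or flavor, and are compared with EC at the end. They also entered the fit and the filter on low counts of EC vs. control, so they bear on its calls. The control cells received no condensate, so EC vs. control covers the carriers together with nicotine, flavor and aerosol products. Each group had 1 library in each of batches 2, 3 and 4, as numbered in the sample labels, and the comparison was made within batches.

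Airway epithelial cells meet inhaled compounds first, and several ligand- or stress-controlled programs answer them. The aryl hydrocarbon receptor (AhR) binds planar aromatic compounds and switches on cytochrome P450 genes of family 1. NRF2 is stabilised when electrophiles modify its partner KEAP1 and raises genes for quinone reduction, glutathione and iron storage. The interferon, p53 and sterol programs and the integrated stress response through ATF4 are read in the same way, from the mRNA of their known target genes, while ribosome, actin and cell division genes report on growth and shape.

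Marker genes were read first, as counts divided by library size and scaled to a common total (CPM). Keratin genes KRT7, KRT8 and KRT18 lay between 314 and 1160 CPM, while the epithelial adhesion genes EPCAM and CDH1 stayed at or below 1.97 CPM. Basal cell markers TP63, KRT5 and KRT14 did not exceed 0.309 CPM. Of 11 mesenchymal markers 6 were expressed well enough to be tested. VIM and FN1 were at 816 CPM or more, CDH2 at 258 to 365 CPM and THY1 at 94.4 to 122 CPM. COL1A1 lay between 51.2 and 105 CPM and PDGFRB between 21.0 and 74.8 CPM. The other 5, LUM and DCN among them, did not exceed 0.682 CPM. The basal marker NGFR rose (LFC 1.25 ± 0.17, adjusted p = 3.28e-05), and as it gave most of the counts of the 5 basal markers, their summed level of 3.9 to 5.57 CPM in control and 9.19 to 16.8 CPM in EC largely repeats that gene. Of 8 leukocyte markers, PTPRC, CD3E, CD68 and LST1 were at 0.306 CPM or less in every library, and the sum of all 8, most of it CD14, was 4.47 to 6.25 CPM in control and 5.8 to 10.8 CPM in EC. The part of these markers in the results was not tested. In bulk RNA fewer cells of a type and less RNA per cell cannot be told apart. The counts on genes were 16168260 to 17882770 in the control libraries and 19318218 to 24917838 in the EC libraries, so the control libraries were the shallower ones. Batch 4 stood apart from batches 2 and 3 in all 3 groups, and EC vs. control was therefore also run on batches 2 and 3 alone.

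A minimum of 10 counts in 3 or more of the 9 libraries left 16030 genes. Of these, 1294 were higher in EC than in control, which is 8.07% of the genes tested, and 863 were lower, which is 5.38%. Together 2157 differentially expressed genes (DEGs) passed an adjusted p of 0.05, or 13.5%. Among the genes that passed, the rises were larger than the falls. An absolute log2 fold change (LFC) above 1 was reached by 232 of the genes that rose and by 29 of those that fell, and the median absolute LFC was 0.51 in the first set and 0.31 in the second. The genes that rose had a median level of 13.6 CPM in control and those that fell 88.1 CPM, against 20.3 CPM over all genes tested. A control mean below 10 CPM was found for 569 of the genes that rose and 88 of those that fell. The part of level in the size of the changes was not tested. Of the genes that rose, 1218 were protein coding and 69 were lncRNAs. Of those that fell, 756 were protein coding, 54 were lncRNAs and 44 were processed pseudogenes, a class with no member that rose. Control and EC libraries did not overlap for 17.3% of all genes tested, 60.3% of those that rose and 50.9% of those that fell. Batches 2 and 3 alone gave 679 genes higher and 548 lower, and a fit that ignored the batches gave 16 and 0. With library size as the only scaling, 1863 genes were higher and 486 lower, which is 79.3% of the calls on the higher side against 60.0%, and ComBat-Seq with DESeq2 gave 1523 and 1576, or 49.1%.

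**Figure D1:**
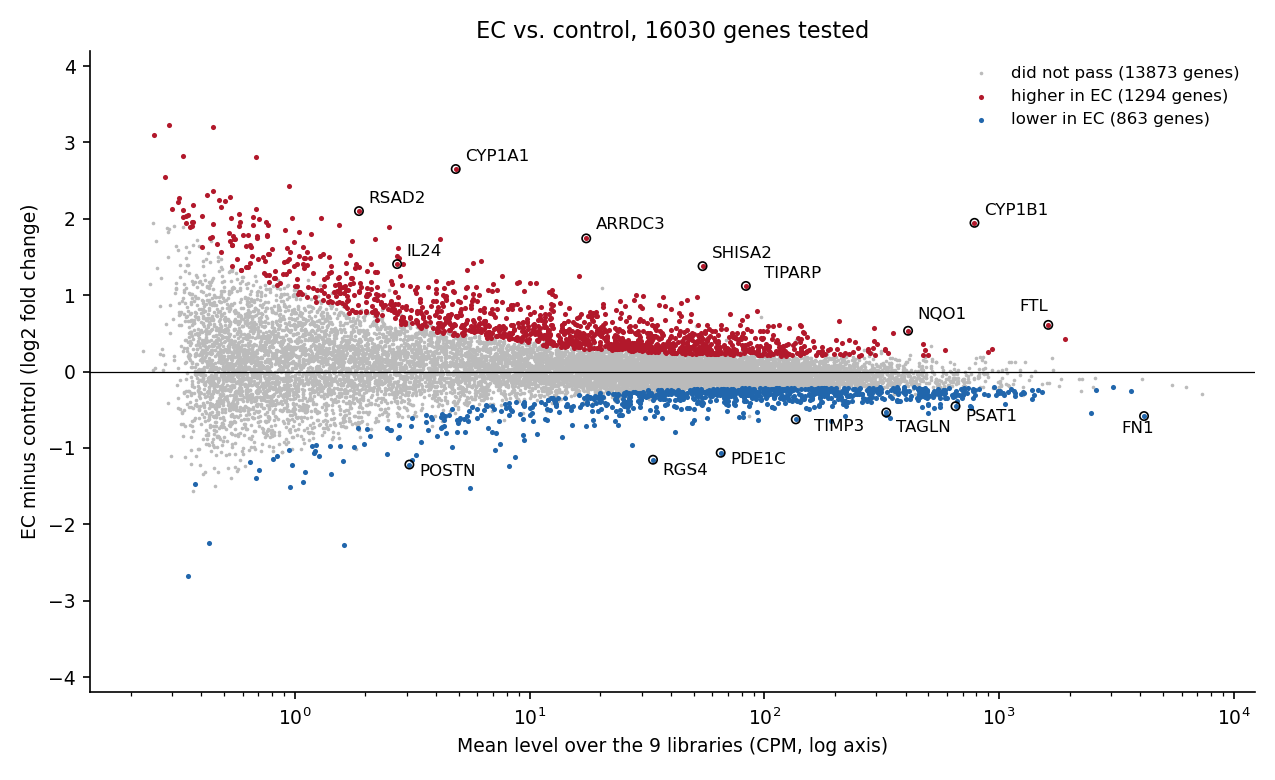
Log2 fold change of EC against control (y axis) plotted against the mean level of each gene over the 9 libraries in CPM (x axis, log scale), with 1294 genes higher in EC in red, 863 lower in blue and the rest in grey. CYP1A1 and CYP1B1 lie among the largest rises, while FN1, PSAT1 and TAGLN are among the abundant genes that fell.

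The direction of the response changed with the expression level. The genes were put in 5 equal groups by mean level. In the group with the lowest levels, up to 1.54 CPM, 145 genes were higher in EC and 20 lower. In the group above 82.3 CPM, 153 were higher and 419 lower. The median LFC fell from 0.14 in the lowest group to −0.06 in the highest, where it was 0.01 over all genes. The depth of the libraries moved with the groups, so the counts were also thinned to the size of the smallest library. In the thinned counts the lowest group held 103 genes higher and 12 lower and the highest group 145 higher and 459 lower. With library size as the only scaling the highest group held 274 higher and 231 lower, so the excess of falls among abundant genes depended on the scaling.

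**Figure D2:**
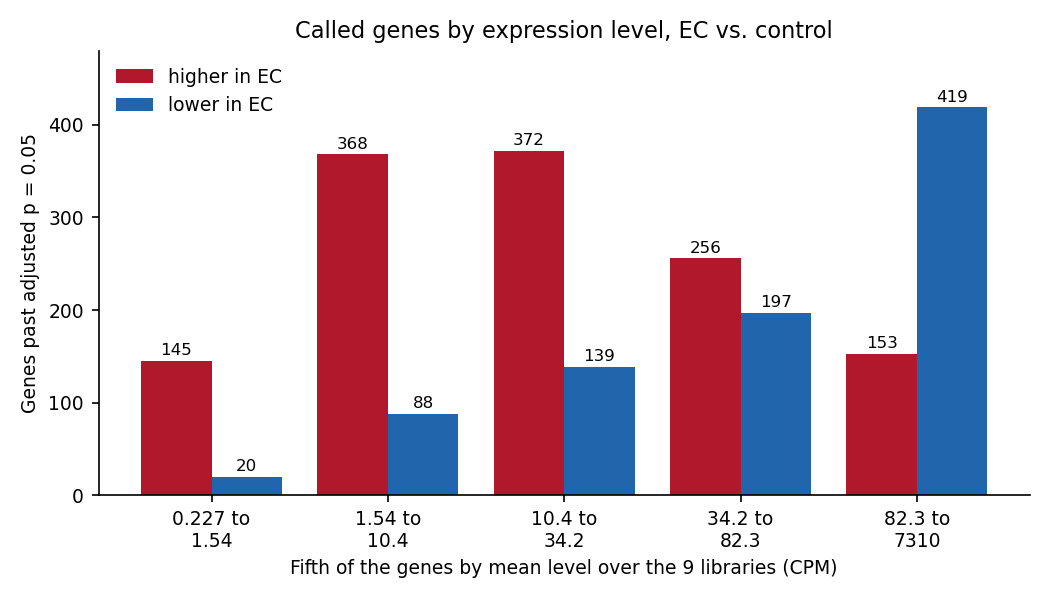
Number of genes past adjusted p = 0.05 that were higher (red) or lower (blue) in EC than in control, in 5 equal groups of 3206 genes ordered by mean CPM over the 9 libraries. Rises outnumber falls in the first 4 groups, and falls outnumber rises, 419 to 153, in the most abundant group.

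Target genes of the AhR gave some of the clearest rises of the whole response. Of 10 tested AhR targets, 7 rose and none fell, with a median LFC of 0.57 beside 0.01 over all genes tested. CYP1B1, a cytochrome P450 enzyme that oxidises polycyclic aromatic compounds and estrogens, was at 409.8, 381 and 355 CPM in control batches 2, 3 and 4 and at 1606, 1638 and 1188 CPM in EC (LFC 1.95 ± 0.10, adjusted p = 3.17e-09). Every EC library lay far above every control library. CYP1A1, the related enzyme that activates benzo(a)pyrene, was scarce in control at 1.14, 1.30 and 2.76 CPM and reached 11.9, 11.2 and 9.47 CPM in EC (LFC 2.65 ± 0.24, adjusted p = 2.06e-06). The groups did not overlap, and the rise was smallest in batch 4, where the control level was highest. TIPARP, a mono-ADP-ribosyltransferase that feeds back on the AhR, went from 53.7, 53.7 and 73.7 to 128, 140.4 and 119.9 CPM (LFC 1.12 ± 0.12, adjusted p = 8.63e-05). ALDH3A1 (LFC 1.71 ± 0.29, adjusted p = 0.000423), NQO1 (LFC 0.53 ± 0.07, adjusted p = 2.13e-05), the leucine carrier SLC7A5 (LFC 0.43 ± 0.08, adjusted p = 0.000802) and the Notch effector HES1 (LFC 0.37 ± 0.11, adjusted p = 0.0239) rose as well. The AhR repressor gene AHRR had an LFC of 0.60 (adjusted p = 0.106). AHR, the receptor, and ARNT, its partner, had LFCs of −0.16 and 0.10. Leaving out 1 library ended the call of HES1 (control 3 or 4, EC 2 or 4, adjusted p up to 0.145).

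**Figure D3:**
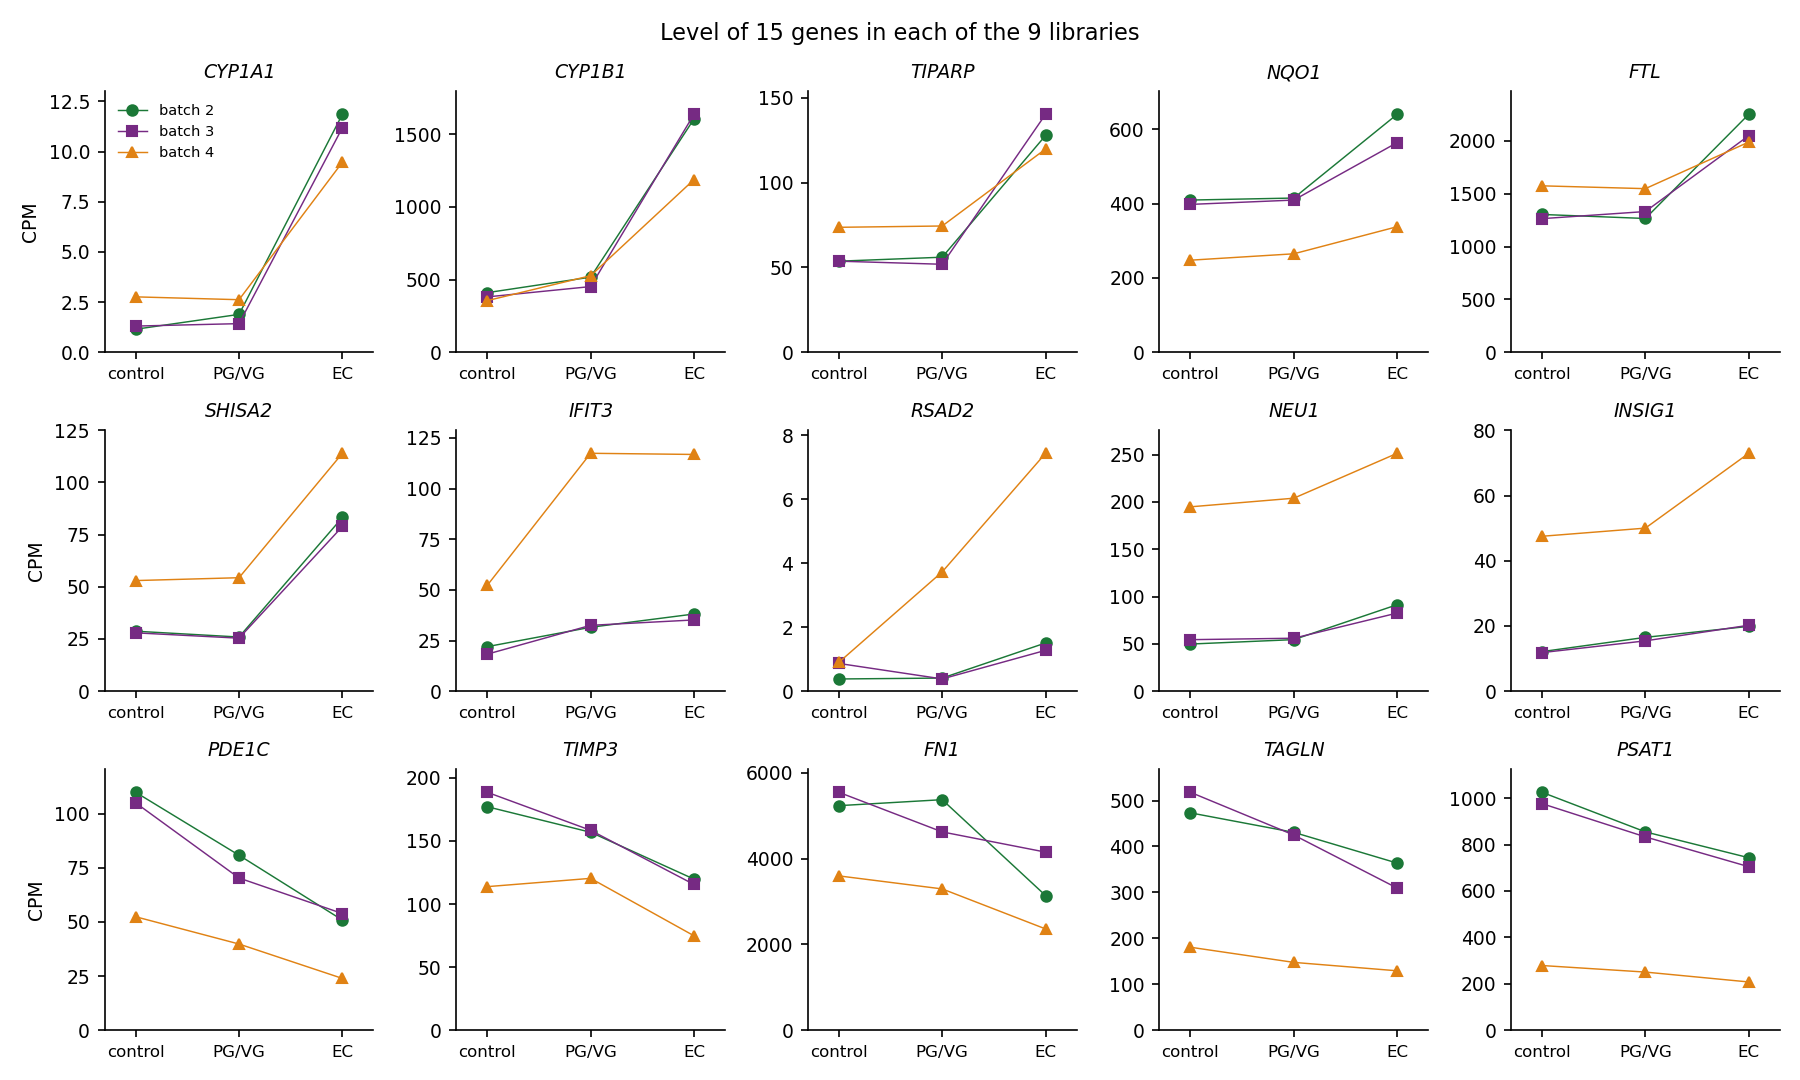
CPM (y axis, from 0) of 15 genes in control, PG/VG and EC, with 1 line for each batch. The 3 EC libraries lie above the 3 control libraries for CYP1A1, CYP1B1, TIPARP, FTL and SHISA2 with PG/VG near control for CYP1A1, TIPARP, FTL and SHISA2, IFIT3 is higher in both PG/VG and EC, and PDE1C, TIMP3, TAGLN and PSAT1 fall in EC in every batch.

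The AhR binds the letters GCGTG, or CACGC on the other strand, and 45.2% of 11426 promoters of genes tested hold this core within 250 bases before the start. It stood in 39.4% of the promoters of genes that rose and 46.8% of those that fell. Among 8 AhR targets with a listed promoter, 5 held it, 4 of them among the 5 that rose. The sequences of CYP1A1 and TIPARP are shown with each match in capitals because these genes rose in EC, while in PG/VG their adjusted p against control was 0.786 and 0.976. They are the 250 bases before the first listed RefSeq start (GRCh38.p14), read on the gene's strand, at chr15:74725529-74725778 on the minus strand for CYP1A1 and at chr3:156674340-156674589 on the plus strand for TIPARP. The leftmost base of the match in CYP1A1 lies at −57 from the start, and those in TIPARP lie at −208 and −142.
CYP1A1: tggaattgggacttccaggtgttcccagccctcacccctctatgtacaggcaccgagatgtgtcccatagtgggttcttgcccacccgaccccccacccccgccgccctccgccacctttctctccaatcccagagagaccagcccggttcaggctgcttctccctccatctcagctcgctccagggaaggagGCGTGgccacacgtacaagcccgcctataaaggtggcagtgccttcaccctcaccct
TIPARP: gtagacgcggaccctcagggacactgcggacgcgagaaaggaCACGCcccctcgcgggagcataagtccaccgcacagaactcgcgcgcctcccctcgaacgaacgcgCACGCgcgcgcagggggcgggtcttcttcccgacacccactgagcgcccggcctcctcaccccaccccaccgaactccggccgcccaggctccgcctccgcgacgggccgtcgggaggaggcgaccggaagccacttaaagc

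NRF2 target genes rose in part. Of 24 tested, 11 were higher in EC and none lower, with a median LFC of 0.29. FTL, the light chain of the iron store ferritin, was at 1304, 1264 and 1575 CPM in control and at 2253, 2050.4 and 1989.5 CPM in EC (LFC 0.61 ± 0.08, adjusted p = 3.14e-05), which makes it one of the most abundant genes that rose. The groups did not overlap. NQO1, a quinone reductase under both NRF2 and the AhR, measured 409.6, 398 and 248 CPM in control and 641, 564 and 338 CPM in EC. Its level was lower in batch 4 than in the other batches in both groups, so the groups overlapped, and EC was higher in each batch. PIR, an iron-binding nuclear protein (LFC 1.16 ± 0.12, adjusted p = 2.06e-06), OSGIN1 (LFC 0.88 ± 0.14, adjusted p = 0.000199), EPHX1, the microsomal epoxide hydrolase (LFC 0.56 ± 0.08, adjusted p = 8.3e-05), and HMOX1, heme oxygenase (LFC 0.53 ± 0.09, adjusted p = 0.000617), also rose. The pentose phosphate enzyme TKT had an LFC of 0.28. Other classical targets did not pass, among them the glutathione synthesis gene GCLM (LFC 0.12) and thioredoxin reductase TXNRD1 (0.13). NFE2L2, which encodes NRF2, had an LFC of 0.00. FTL has several processed pseudogenes, and its reads that also match these were left out of the counts. With 1 library left out, the call was lost for TKT (control 2 or 3, adjusted p up to 0.0813).

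Some enzymes that clear aldehydes rose. Of 15 aldehyde dehydrogenases tested, 6 rose and none fell, with a median LFC of 0.13. ALDH1A3, which makes retinoic acid, went from 27.7, 26.3 and 43.2 to 55.1, 50.9 and 72.5 CPM (LFC 0.90 ± 0.09, adjusted p = 1.27e-06), and ALDH3B1 and ALDH3A2, which clear fatty aldehydes, had LFCs of 0.61 and 0.50. The aldo-keto reductases AKR1B10 and AKR1C3 rose from under 2.1 CPM with LFCs of 1.32 and 1.31. Of 5 metallothioneins tested, MT1E and MT2A rose (LFC 0.44 and 0.36). MT2A was at 193, 202 and 469 CPM in control and at 286, 292 and 463 CPM in EC, so it was higher in EC in batches 2 and 3 and not in batch 4. Of 7 acetylcholine receptor genes tested, only the muscarinic CHRM4 passed (LFC 1.30 ± 0.25, adjusted p = 0.00134), and the nicotinic subunit CHRNA5 had an LFC of 0.32. The share that rose was 14.3%, beside 8.07% of all genes. In PG/VG, without nicotine, 1 of the 7 was higher than in control, and 0 differed between EC and PG/VG in edgeR. Of 28 ABC transporters tested, 9 rose and none fell, among them the xenobiotic exporters ABCC3 (LFC 0.50) and ABCG2 (0.75). A call did not hold without single libraries for AKR1B10 (control 4, adjusted p = 0.127), AKR1C3 (control 2 or 3, EC 2 or 3, adjusted p up to 0.101) and MT2A (control 2 or 3, EC 2 or 3, adjusted p up to 0.0976).

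Many interferon-stimulated genes rose in EC. Of 49 tested, 28 were higher in EC and none lower, with a median LFC of 0.38, and 22 members rose in batches 2 and 3 alone. IFIT2, whose protein binds viral RNA, was at 12.1, 9.66 and 32.5 CPM in control and at 20.4, 18.6 and 74.6 CPM in EC (LFC 0.995 ± 0.10, adjusted p = 8.64e-07). IFIT3, its partner, measured 21.98, 18.3 and 52.2 CPM in control and 38.1, 35.2 and 117 CPM in EC (LFC 0.98 ± 0.10, adjusted p = 1.07e-06). Both genes were higher in batch 4 than in the other batches in either group, so the groups overlapped, and EC was above control in each batch. OASL (LFC 1.02 ± 0.13, adjusted p = 2.62e-05), IFI44 (LFC 1.06 ± 0.15, adjusted p = 7.18e-05) and OAS1 (LFC 0.87 ± 0.12, adjusted p = 7.3e-05), antiviral effectors, rose by similar amounts. The transcription factor STAT2, which carries the interferon signal, had an LFC of 0.53, and the ubiquitin-like modifier ISG15 had 0.53. RSAD2, which encodes viperin, was scarce at 0.381, 0.867 and 0.901 CPM in control and measured 1.51, 1.28 and 7.44 CPM in EC (LFC 2.10 ± 0.42, adjusted p = 0.00407). Its largest difference lay in batch 4, and without the control or the EC library of batch 4 its adjusted p rose to as much as 0.114. STING1, the sensor of cyclic dinucleotides upstream of interferon, rose from 21.5, 26.7 and 28.3 to 43.00, 40.9 and 55.2 CPM (LFC 0.86 ± 0.09, adjusted p = 1.5e-06). Interferon-stimulated genes also stood higher in PG/VG than in control, with a median LFC of 0.40 against the same control libraries. Between EC and PG/VG 0 of the 49 passed in edgeR's quasi-likelihood test, 8 had an unadjusted p under 0.05, and DESeq2 called 0, or 1 after ComBat-Seq.

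Interferon response elements were read as the letters GAAANNGAAA, or TTTCNNTTTC on the other strand. They stood in the 250 bases before the start in 2.43% of all promoters of genes tested, in 59.0% of 39 promoters of interferon-stimulated genes and in 59.1% of the 22 whose genes rose. These promoters also held fewer G and C letters, with a median of 53.6% against 65.2% over all. IFIT1 (LFC 0.65) and IFIT3 are shown because IFIT2 and IFIT3 had the smallest p of this list and IFIT1 is their neighbour, with each match in capitals, at chr10:89392373-89392622 for IFIT1 and chr10:89327747-89327996 for IFIT3, both on the plus strand of chromosome 10. Matches begin at −116 and −103 in IFIT1 and at −156 and −122 in IFIT3.
IFIT1: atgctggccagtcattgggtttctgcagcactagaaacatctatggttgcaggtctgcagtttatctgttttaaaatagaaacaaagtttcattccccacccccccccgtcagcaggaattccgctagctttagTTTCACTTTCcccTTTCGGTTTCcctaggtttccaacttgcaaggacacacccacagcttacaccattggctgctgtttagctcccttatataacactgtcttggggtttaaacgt
IFIT3: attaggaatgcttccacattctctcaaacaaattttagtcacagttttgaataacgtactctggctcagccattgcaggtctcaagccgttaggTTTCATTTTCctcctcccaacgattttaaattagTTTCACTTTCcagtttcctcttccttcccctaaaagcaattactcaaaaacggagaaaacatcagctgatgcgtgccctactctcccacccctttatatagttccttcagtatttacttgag

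Some genes of antigen presentation and NF-kB signalling rose. Of 17 MHC class I presentation genes, 7 rose and none fell (median LFC 0.20). TAP1, a subunit of the peptide pump, rose with LFC 0.51 ± 0.08, adjusted p = 0.000148, followed by TAPBP (LFC 0.34) and HLA-E (0.33), while the light chain B2M had 0.13. In batches 2 and 3 alone 7 rose as well, and the median within batch 4 was 0.06. Reads of the classical HLA genes can be shared between them, so their split is uncertain. Of 15 NF-kB subunits and feedback genes, 5 rose, with NFKB2 at LFC 0.45, RELB at 0.55 and the apoptosis inhibitor BIRC3 at 0.55. Among 26 interleukins and chemokines, CSF1 (0.50), LIF (0.57), CXCL16 (0.67) and IL24 rose and none fell. IL24, a cytokine of the IL-10 family, was at 0.381, 0.557 and 5.23 CPM in control and at 1.82, 1.45 and 11.5 CPM in EC (LFC 1.41 ± 0.26, adjusted p = 0.000984), and 41.6% of its exon length overlaps another gene. The classical inflammatory cytokines IL6 and CXCL8 had LFCs of 0.46 and 0.31 at adjusted p of 0.24 and 0.15. Of the prostaglandin enzymes, PTGS2 (LFC 0.71) and PTGES (1.18) rose from under 3 CPM and PTGES2 fell (−0.41). Removal of 1 library took the call from TAPBP (control 3, adjusted p = 0.0557), PTGS2 (control 2 or 4, PG/VG 4, EC 2 or 4, adjusted p up to 0.287) and PTGES (control 2 or 3, EC 2 or 3, adjusted p up to 0.101).

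Growth factor and transcription factor genes moved in both directions. Of 21 AP-1 and immediate early genes, JUNB rose (LFC 0.53) and 4 fell, among them MYC and KLF6. The median of that list was −0.17 and −0.16 within batches 2 and 3 and 0.29 within batch 4. MYC, a driver of ribosome and nucleotide synthesis, went from 144, 147 and 94.2 to 111.4, 99.3 and 67.1 CPM (LFC −0.47 ± 0.07, adjusted p = 9.36e-05), lower in each batch. The EGF receptor ligands TGFA (LFC 0.57) and EREG (0.65) rose, and ERRFI1, a feedback inhibitor of the receptor, fell (−0.34). In the TGF-beta pathway 6 of 22 genes rose and 4 fell. VASN, a membrane protein that traps TGF-beta, was at 30.5, 34.1 and 29.9 CPM in control and at 63.9, 61.7 and 55.6 CPM in EC (LFC 0.94 ± 0.08, adjusted p = 1.02e-07). The groups were well apart. The inhibitory SMAD6 rose (LFC 0.67), and the TGF-beta target TGFBI fell (−0.35). Of 20 YAP-TEAD targets none rose and 5 fell, with AXL at LFC −0.43, while the usual reporters CCN1 and CCN2 had −0.11 and −0.28. CCN2 fell in batches 2 and 3 alone (LFC −0.52, adjusted p = 0.00111). The Wnt receptor genes LRP5 (0.61), FZD7 (0.52) and FZD8 (0.83) rose, 3 of the 7 rises among 27 Wnt genes, and the secreted antagonist DKK1 fell (−0.32), a call lost in batches 2 and 3 alone (adjusted p = 0.0729). Leaving out 1 library ended the call of ERRFI1 (control 2, adjusted p = 0.0535).

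Of 25 p53 targets 11 rose and 1 fell, with a median LFC of 0.23. TP53I3, a quinone oxidoreductase (LFC 0.56 ± 0.08, adjusted p = 5.87e-05), SESN1, a stress-induced inhibitor of mTORC1 (LFC 0.55 ± 0.10, adjusted p = 0.000571), and the death receptor FAS (LFC 0.51 ± 0.09, adjusted p = 0.000783) gave the smallest p among the rises, and PLK2 fell (LFC −0.45 ± 0.07, adjusted p = 0.000166). CDKN1A, the cell cycle inhibitor p21, was at 304, 320.4 and 709 CPM in control and at 360.2, 341 and 1002 CPM in EC (LFC 0.28 ± 0.07, adjusted p = 0.0128). Most of that rise lay in batch 4, where control was also highest, and the median of the list within batches 2, 3 and 4 was 0.14, 0.06 and 0.50, and 4 members rose in batches 2 and 3 alone. MDM2, the ligase that removes p53, had an LFC of 0.28 (adjusted p = 0.15). With 1 library left out, the call was lost for CDKN1A (control 4, EC 4, adjusted p up to 0.164).

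Many genes of the actin cytoskeleton and of focal adhesions fell. Of 59 tested, 25 were lower in EC and none higher, 54 had a negative LFC, and the median was −0.20 beside 0.01 over all genes. TAGLN, the actin-bundling protein transgelin, went from 473, 518 and 181 to 364, 309 and 129 CPM (LFC −0.53 ± 0.07, adjusted p = 4.48e-05). Levels in batch 4 were far below the others in both groups, and EC was lower in each batch. FBLIM1 (LFC −0.41 ± 0.07, adjusted p = 0.000506), the GTPase-activating DLC1 (LFC −0.43 ± 0.08, adjusted p = 0.000615), ZYX, which marks tension-bearing adhesions (LFC −0.35 ± 0.07, adjusted p = 0.00102), and VASP, which extends filaments (LFC −0.37 ± 0.07, adjusted p = 0.00122), followed. The crosslinkers ACTN1, ACTN4, FLNA and FLNC had LFCs between −0.29 and −0.21. FLNA was at 3133, 3579 and 2594 CPM in control and at 2718, 3175 and 2188 CPM in EC, and with an adjusted p of 0.0495 it lay at the threshold. ACTB, beta-actin itself, had an LFC of −0.20 (adjusted p = 0.0684). In batches 2 and 3 alone 12 members fell and none rose. A call did not hold without single libraries for ACTN1 (control 3, adjusted p = 0.0827), ACTN4 (control 4, adjusted p = 0.077), FLNA (control 2, 3 or 4, EC 2, 3 or 4, adjusted p up to 0.189) and FLNC (control 4, EC 2, adjusted p up to 0.0861).

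Matrix and junction genes moved in both directions. FN1, fibronectin, one of the most abundant mRNAs of these cells, was at 5233, 5545 and 3596 CPM in control and at 3138, 4150.0 and 2359.7 CPM in EC (LFC −0.58 ± 0.09, adjusted p = 0.000113). The levels overlapped only through batch 4, whose control library lay below the EC library of batch 3. TIMP3, a matrix-bound inhibitor of metalloproteinases, measured 177, 189 and 114 CPM in control and 119.8, 116 and 74.8 CPM in EC (LFC −0.63 ± 0.07, adjusted p = 8.94e-06). COL8A1, a short-chain collagen, went from 278, 264 and 156 to 158, 165 and 115 CPM (LFC −0.65 ± 0.07, adjusted p = 5.93e-06). Both were lower in EC in each batch. Of 33 collagens and laminins, 4 rose and 2 fell, or 12.1% and 6.06%, beside 8.07% and 5.38% of all genes. Among matrix glycoproteins 6 rose and 8 fell of 31, with the proteoglycan VCAN (LFC 1.16 ± 0.15, adjusted p = 2.06e-05) and the elastic fibre protein FBLN5 (LFC 0.98 ± 0.16, adjusted p = 0.000357) rising and POSTN, periostin (LFC −1.22 ± 0.20, adjusted p = 0.00026), TNC, THBS1 and LOXL2 falling. TNC did not pass in batches 2 and 3 alone (adjusted p = 0.0825). Of 17 metalloproteinases and inhibitors 7 rose and only TIMP3 fell, with a median LFC of 0.41. The gelatinase MMP2 rose from 60.03, 66.1 and 55.9 to 118, 123 and 67.8 CPM (LFC 0.72 ± 0.10, adjusted p = 0.000196), mainly in batches 2 and 3, and the membrane-type enzymes MMP15 and MMP17 had LFCs of 0.41 and 1.11. Of 41 keratin and junction genes 6 rose and 8 fell. The simple-epithelium keratins KRT18 (LFC −0.46), KRT7 (−0.45) and KRT8 (−0.25) fell, the stress keratin KRT17 rose (0.45, with adjusted p = 0.0729 in batches 2 and 3 alone), and the desmosome gene PKP2 fell (−0.38). Removal of 1 library took the call from KRT8 (control 2 or 3, EC 3, adjusted p up to 0.138).

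Many lysosomal hydrolase genes rose. Of 51 tested, 27 were higher in EC and none lower, with a median LFC of 0.24. FUCA1, which removes fucose from glycoproteins, was at 18.8, 18.6 and 40.2 CPM in control and at 39.9, 39.5 and 69.04 CPM in EC (LFC 0.97 ± 0.09, adjusted p = 2.44e-07). Its level was higher in batch 4 in both groups, and EC stood above control in each batch. NEU1, the lysosomal sialidase, measured 49.8, 54.4 and 195 CPM in control and 91.4, 82.6 and 251 CPM in EC (LFC 0.61 ± 0.08, adjusted p = 4.98e-05). SMPD1, acid sphingomyelinase (LFC 0.54 ± 0.08, adjusted p = 0.000113), and the proteases CTSS and CTSL (LFC 0.88 and 0.34) rose as well. The list's median was 0.35 and 0.28 within batches 2 and 3 and 0.10 within batch 4. Lysosomal membrane and proton pump genes moved less, with 4 of 34 higher (11.8%, beside 8.07% of all genes), none lower and a median of 0.08. They included the sialic acid exporter SLC17A5 (0.51). Of 39 autophagy and TFEB family genes 3 rose and 3 fell, or 7.69% each, beside 8.07% and 5.38% of all genes. The cargo receptor SQSTM1, also an NRF2 target, rose from 228, 237 and 459 to 377, 367 and 504 CPM (LFC 0.50 ± 0.09, adjusted p = 0.00139). Leaving out 1 library ended the call of CTSL (control 2 or 3, adjusted p up to 0.0839).

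Some genes of sterol and fatty acid synthesis rose. Of 25 cholesterol synthesis and uptake genes 11 were higher and none lower, 23 had a positive LFC, and the median was 0.23. INSIG1, which holds back sterol sensing in the endoplasmic reticulum, went from 12.1, 11.8 and 47.5 to 19.9, 20.2 and 72.95 CPM (LFC 0.68 ± 0.09, adjusted p = 4.8e-05), higher in each batch. The sterol enzymes TM7SF2 and MSMO1 had LFCs of 0.85 and 0.53. The median within batch 4 was 0.40 against 0.15 and 0.18 within batches 2 and 3, and 5 members rose in batches 2 and 3 alone. Of 21 fatty acid synthesis genes 7 rose, led by the desaturases FADS2 (LFC 0.66 ± 0.08, adjusted p = 1.07e-05), SCD (LFC 0.57 ± 0.09, adjusted p = 0.000152) and FADS1 (LFC 0.41), and ACSL4 fell (−0.32). Of these 21 genes, 5 rose and 1 fell in batches 2 and 3 alone. Fatty acid oxidation gave 1 rise, the lipase inhibitor ANGPTL4 (LFC 1.15), and 3 falls of 30, or 3.33% and 10.0%. Lipid droplet and lipolysis genes gave 3 rises of 24, or 12.5%, with PNPLA3 at 0.78. Over all genes tested 8.07% rose and 5.38% fell. PHYH, a peroxisomal enzyme that breaks down branched fatty acids, gave one of the 15 smallest p of all rises, from 15.6, 15.05 and 27.02 to 34.3, 31.2 and 48.1 CPM (LFC 1.003 ± 0.10, adjusted p = 7.86e-07).

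Several enzymes of serine, folate and amino acid metabolism fell. Of 21 serine and one-carbon genes 7 were lower in EC and none higher, with a median LFC of −0.15, and 7 were lower in batches 2 and 3 alone. PSAT1, the second enzyme of serine synthesis, was at 1025, 976 and 279 CPM in control and at 743, 704 and 208 CPM in EC (LFC −0.45 ± 0.06, adjusted p = 6.37e-05). The level in batch 4 was far below that in the other batches, and EC was lower in each batch. The mitochondrial folate enzymes MTHFD1L (LFC −0.46 ± 0.07, adjusted p = 7.64e-05), MTHFD2 (LFC −0.35 ± 0.07, adjusted p = 0.00182) and SHMT2 (LFC −0.33 ± 0.07, adjusted p = 0.00174) and cystathionine lyase CTH (LFC −0.58 ± 0.09, adjusted p = 9.64e-05) followed, while PHGDH, the first enzyme of the pathway, had an LFC of −0.08. ATF4 targets share members with other lists, PSAT1 and CTH with the serine and one-carbon genes and SLC7A5 with AhR targets and amino acid carriers. Among 27 ATF4 targets 9 fell and 2 rose. PCK2 (LFC −0.45) and CEBPG (−0.34) were among those that fell, SLC7A5 was among the rises, and ATF4 and DDIT3 themselves had −0.13 and −0.25. DDIT3 fell in batches 2 and 3 alone (LFC −0.41, adjusted p = 0.0301). BCAT1, the cytosolic transaminase of leucine, isoleucine and valine, went from 339.7, 327 and 116 to 218, 237 and 74.6 CPM (LFC −0.58 ± 0.07, adjusted p = 2.31e-05), lower in each batch. PYCR1, the mitochondrial enzyme that completes proline, measured 145, 161 and 42.8 CPM in control and 102, 96.1 and 27.6 CPM in EC (LFC −0.63 ± 0.07, adjusted p = 7.08e-06). Of 26 amino acid carriers 6 rose and 4 fell, with SLC43A2 (LFC 1.04) and SLC1A3 (0.81) among the rises and the arginine carrier SLC7A1 (−0.33) among the falls.

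Lists of the translation machinery held many falls. All 22 cytosolic tRNA synthetase genes had a negative LFC and 13 passed, with a median of −0.26 that was −0.29, −0.28 and −0.22 within batches 2, 3 and 4. In batches 2 and 3 alone 13 of them fell. GARS1, the enzyme for glycine, went from 743, 689 and 302 to 533, 506 and 233 CPM (LFC −0.43 ± 0.06, adjusted p = 0.000113), and VARS1, for valine, had LFC −0.49 ± 0.07, adjusted p = 6.31e-05. Ribosome biogenesis factors gave 41 falls and no rise of 110 (median −0.20), led by BOP1 (LFC −0.48) and MRTO4 (−0.42), which assemble the large subunit. Of 79 cytosolic ribosomal protein genes 49 fell, and all had a negative LFC, with a median of −0.28. That median was −0.08, −0.29 and −0.45 within batches 2, 3 and 4, so the falls were largest in batch 4 and smallest in batch 2. In batches 2 and 3 alone, a fit with fewer libraries, the median was −0.21 and 5 of the 79 fell. Initiation factors gave 16 falls and 1 rise of 40 and elongation and release factors 8 falls of 16, and in batches 2 and 3 alone 5 and 4 members fell. For ribosome biogenesis factors that count was 25. RPL22L1, which encodes a variant ribosomal protein, was among the 15 falls with the smallest p, from 73.3, 77.8 and 42.3 to 52.6, 46.3 and 26.04 CPM (LFC −0.64 ± 0.08, adjusted p = 1.28e-05). Ribosomal protein genes share sequence with processed pseudogenes, and reads that match both were not counted.

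**Figure D4:**
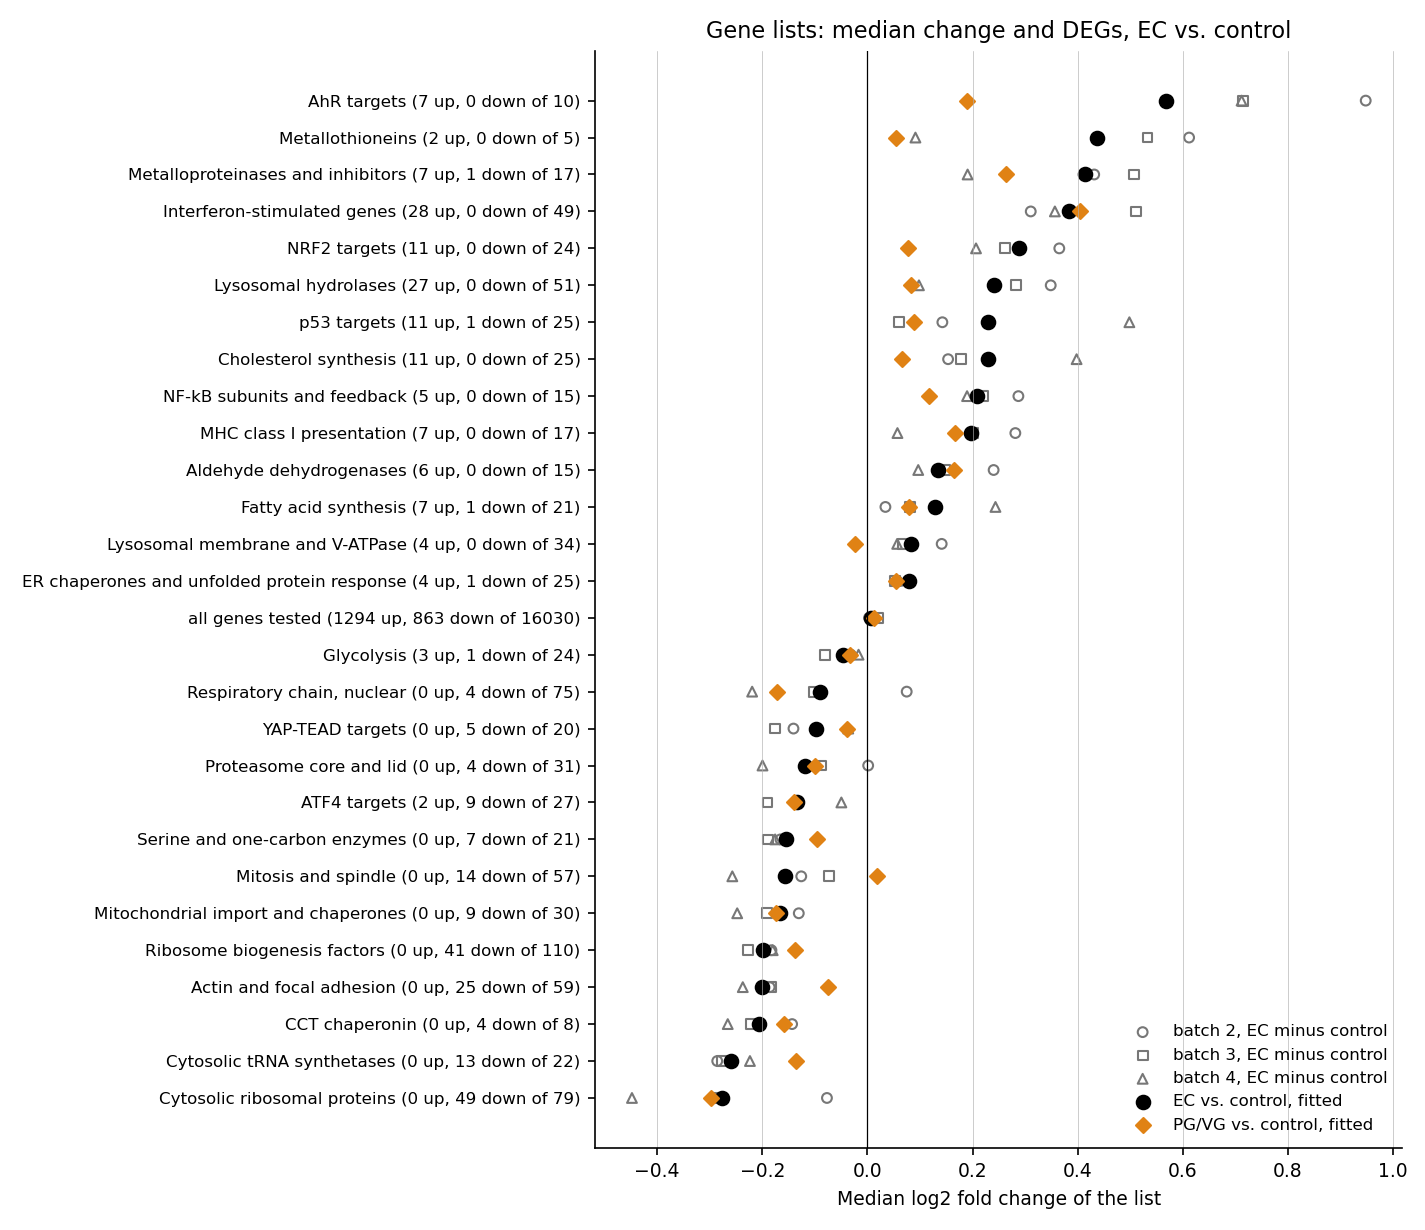
Median LFC of 27 gene lists and of all genes tested, fitted for EC vs. control (black) and PG/VG vs. control (orange), with the medians within batches 2, 3 and 4 of EC minus control as open grey symbols. The labels give the members that rose and fell. Of the lists drawn, AhR targets have the highest median, 0.57, and cytosolic ribosomal proteins the lowest, −0.28. Batch values are log2 differences with a prior count and can lie off the fitted median.

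Mitochondrial and protein folding lists ranged from many falls to shares near those of all genes. Import and matrix chaperone genes gave 9 falls and no rise of 30, or 6 falls in batches 2 and 3 alone, with TRAP1 (LFC −0.41 ± 0.07, adjusted p = 0.000399), HSPA9, the matrix HSP70 (LFC −0.38 ± 0.07, adjusted p = 0.000466), and the protease LONP1 (LFC −0.36 ± 0.07, adjusted p = 0.00134) leading. Of 81 mitochondrial ribosomal protein genes 11 fell, and of 75 nuclear-encoded respiratory chain genes 4 fell, which is 13.6% and 5.33% beside 5.38% of all genes. The respiratory chain median was 0.07, −0.10 and −0.22 within batches 2, 3 and 4, and no member passed in batches 2 and 3 alone. All 13 protein genes of the mitochondrial genome had a negative LFC and 2, MT-CO1 and MT-CO2, passed (−0.25 and −0.26). In batches 2 and 3 alone 5 of the 13 fell. UCP2, an inner membrane carrier, gave the third smallest p of all falls, from 71.98, 77.5 and 33.8 to 47.5, 47.7 and 20.7 CPM (LFC −0.67 ± 0.08, adjusted p = 5.84e-06). Of the 8 subunits of the CCT chaperonin, which folds actin and tubulin, 4 fell and none rose, and 1 fell in batches 2 and 3 alone. Cytosolic heat shock genes gave 4 rises, HSPB8 with LFC 0.82 among them, and 2 falls of 24. Endoplasmic reticulum chaperone and unfolded protein response genes gave 4 rises and 1 fall of 25. Over all genes 8.07% rose and 5.38% fell. Of 31 constitutive proteasome genes 4 fell and none rose, and none passed in batches 2 and 3 alone. One of these, an entry under the symbol PSMA2 (LFC −1.11), was below 1.5 CPM and shares 29.7% of its exon length with another gene. It lost its call without any 1 of the 6 control and EC libraries (adjusted p up to 0.166). Where several entries shared a symbol, the lists kept the entry with the smallest p. The PSMA2 values are those of the entry kept and may not speak for the gene as a whole. With 1 library left out, the call was lost for MT-CO1 (control 2 or 4, EC 3 or 4, adjusted p up to 0.211) and MT-CO2 (control 2, 3 or 4, EC 2 or 3, adjusted p up to 0.296).

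Some cell division genes fell. Of 57 mitosis and spindle genes 14 fell and none rose, with a median LFC of −0.16, and 4 fell in batches 2 and 3 alone. ECT2, which positions the cleavage furrow (LFC −0.32 ± 0.07, adjusted p = 0.00201), and the kinases AURKA (LFC −0.35 ± 0.07, adjusted p = 0.00296) and PLK1 (LFC −0.31 ± 0.07, adjusted p = 0.00648) were among them. PLK1 was at 180.0, 180.0 and 201 CPM in control and at 154, 158 and 142 CPM in EC, without overlap. MKI67, a proliferation marker, had an LFC of −0.10 (adjusted p = 0.791). Of 53 replication and S phase genes 2 rose and 4 fell, or 3.77% and 7.55%, beside 8.07% and 5.38% of all genes. Hypoxia response genes gave 5 rises of 20, with NDRG1 at LFC 0.75 ± 0.08, adjusted p = 4.28e-06 and the collagen hydroxylase P4HA1 at LFC 0.53 ± 0.08, adjusted p = 0.000143. The median of that list was −0.03 and −0.02 within batches 2 and 3 and 0.27 within batch 4, and in batches 2 and 3 alone 4 members rose and 1 fell. Glycolysis genes gave 3 rises and 1 fall of 24, or 12.5% and 4.17%, also near the shares of all genes. In the circadian clock BHLHE40, also a hypoxia target, rose (LFC 0.77 ± 0.09, adjusted p = 7.97e-06) and CRY1 fell (LFC −0.51 ± 0.07, adjusted p = 5.87e-05) of 16 genes. A call did not hold without single libraries for PLK1 (control 4, EC 4, adjusted p up to 0.0666).

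Several of the smallest p belonged to genes outside these programs. ARRDC3, an alpha-arrestin that recruits ubiquitin ligases to receptors, shared the smallest adjusted p with CYP1B1 and went from 8.58, 7.74 and 6.92 to 25.8, 26.9 and 24.9 CPM (LFC 1.74 ± 0.12, adjusted p = 3.17e-09). Of 5 alpha-arrestin genes tested, 1 was higher in PG/VG than in control, and 1 was higher in EC than in PG/VG. The paper names ARRDC3 as the gene that changed most in PG/VG vs. control. SHISA2, which retains Wnt and FGF receptors in the endoplasmic reticulum, was at 28.7, 27.9 and 52.96 CPM in control and at 83.2, 78.9 and 114 CPM in EC (LFC 1.38 ± 0.10, adjusted p = 2.64e-08). SLC16A14, a member of the monocarboxylate carrier family, went from 9.28, 8.48 and 11.3 to 22.02, 22.9 and 23.7 CPM (LFC 1.25 ± 0.12, adjusted p = 4.91e-07), and the receptor phosphatase PTPRU (LFC 0.92 ± 0.09, adjusted p = 8.64e-07) and the membrane protein TMEM156 (LFC 0.82 ± 0.09, adjusted p = 3.7e-06) rose too. Neither ARRDC3, SHISA2 nor SLC16A14 overlapped between control and EC, which held for 60.3% of all genes that rose. Among the falls PDE1C, a calmodulin-activated phosphodiesterase of cyclic nucleotides, had the smallest p and went from 109.9, 105 and 52.4 to 50.9, 53.9 and 23.9 CPM (LFC −1.06 ± 0.08, adjusted p = 1.48e-08), lower in each batch. RGS4, which shortens G protein signals, measured 33.4, 26.4 and 81.9 CPM in control and 11.5, 14.1 and 39.8 CPM in EC (LFC −1.15 ± 0.12, adjusted p = 7.97e-06). ETS1, a transcription factor (LFC −0.61 ± 0.07, adjusted p = 9.17e-06), EDN1, the vasoconstrictor endothelin-1 (LFC −1.12 ± 0.14, adjusted p = 1.08e-05), the small nuclear RNA activator SNAPC1 (LFC −0.59 ± 0.07, adjusted p = 1.07e-05), the matrix-binding ABI3BP (LFC −0.79 ± 0.09, adjusted p = 8.57e-06) and the pattern recognition molecule PTX3 (LFC −0.61 ± 0.08, adjusted p = 1.49e-05) completed this set. Where each EC library held 20 or more counts, the largest rises after CYP1A1 were TPBGL (LFC 2.43), RSAD2, PLD5 (2.02) and UBE2QL1 (2.01). The largest falls by the same rule were the lncRNAs ZFHX4-AS1 (LFC −1.53) and LINC01111 (−1.23), RTL3 (−1.34), MAP1LC3B2 (−1.31), POSTN and IGFBP5 (−1.16). UBE2QL1 and RTL3 did not pass in batches 2 and 3 alone (adjusted p = 0.0693 and 0.0589). Removal of 1 library took the call from MAP1LC3B2 (EC 3, adjusted p = 0.0567).

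EC was compared with PG/VG to show which of these differences went beyond the carrier condensate. The paper does not give the ratio of propylene glycol to glycerol in the EC liquid. A different mix of carriers therefore cannot be told apart from nicotine and flavor here. In that comparison 137 genes, or 0.855% of those tested, passed an adjusted p of 0.05, while 4.54% passed in PG/VG vs. control. The count of 137 depended on the fit: it was 33 without PG/VG 2, 47 without EC 2, 62 without PG/VG 4, 316 with the compared groups alone, 658 with ComBat-Seq and DESeq2, and 1 without the batch term. Of the 2157 DEGs of EC vs. control, 112 also differed between EC and PG/VG, 75 of them higher and 37 lower in EC than in both other groups. SHISA2 had the smallest p (LFC 1.45 ± 0.10, adjusted p = 3.24e-08), and its PG/VG libraries stood at 25.9, 25.4 and 54.3 CPM. CYP1B1 (LFC 1.56 ± 0.09, adjusted p = 7.54e-08), CYP1A1 (LFC 2.47 ± 0.22, adjusted p = 1.06e-05), IL24 (LFC 2.23 ± 0.27, adjusted p = 0.000128) and FTL (LFC 0.61 ± 0.08, adjusted p = 0.000334) followed. IL24 differed more from PG/VG than from control, so the fit put its PG/VG level below control, and its LFC here is not all a rise in EC. CYP1B1 also rose in PG/VG against control (LFC 0.39, adjusted p = 0.0236), by less than in EC. CYP1A1 measured 1.88, 1.42 and 2.62 CPM in PG/VG and FTL 1266, 1332 and 1549 CPM, within the range of control. PDE1C (LFC −0.59 ± 0.08, adjusted p = 0.000334) fell in PG/VG too, with 80.8, 70.3 and 39.8 CPM between control and EC in each batch. The glucose 6-phosphate carrier SLC37A2 (EC minus PG/VG, LFC 0.68), NQO1 (0.48), TMEM156 (0.60) and the adhesion molecule NEGR1 (1.38) closed the first 10. NEGR1, like IL24, differed more from PG/VG than from control.

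By program, 6 of 10 AhR targets and 5 of 24 NRF2 targets were higher in EC than in PG/VG, and none was lower. The 5 NRF2 targets were PIR, NQO1, FTL, OSGIN1 and HMOX1. Both metallothioneins that rose, MT1E (EC minus PG/VG, LFC 0.55) and MT2A (0.39), differed from PG/VG as well, as did the lysosomal genes FUCA1 (0.48), NEU1 (0.53) and CTSL (0.39). ACTN1, ACTN4, FLNA and FLNC were lower in EC than in PG/VG, with LFCs of −0.30, −0.33, −0.34 and −0.37, and 4 mitosis genes, PLK1, CENPE, INCENP and NCAPD2, were lower too. Of 57 mitosis genes DESeq2 with batch called 11 and ComBat-Seq with DESeq2 22, with 33 at an unadjusted p under 0.05. Of 59 actin and focal adhesion genes edgeR called 5, and these counts were 9, 22 and 31. CENPE, INCENP and NCAPD2 did not pass in EC vs. control. TIMP3 (−0.51), FN1 (−0.47), COL8A1 (−0.43) and BCAT1 (−0.38) were lower in EC than in PG/VG. Between EC and PG/VG edgeR called 0 of the 79 ribosomal protein genes, 0 of the 110 ribosome biogenesis genes and 0 of the 17 MHC class I genes, with 0, 17 and 2 at an unadjusted p under 0.05 and 0 called by DESeq2 with batch in each list. ComBat-Seq with DESeq2 called 0, 7 and 0. Of 22 tRNA synthetases and 21 serine and one-carbon enzymes edgeR also called 0, but 13 and 10 had an unadjusted p under 0.05. DESeq2 with batch called 5 and 2 of them and ComBat-Seq with DESeq2 11 and 7, so the result depended on the tool. The median LFC of PG/VG vs. control was −0.30 for ribosomal proteins, −0.14 for biogenesis factors and −0.14 for tRNA synthetases, beside the EC values above and against the same control libraries.

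**Figure D5:**
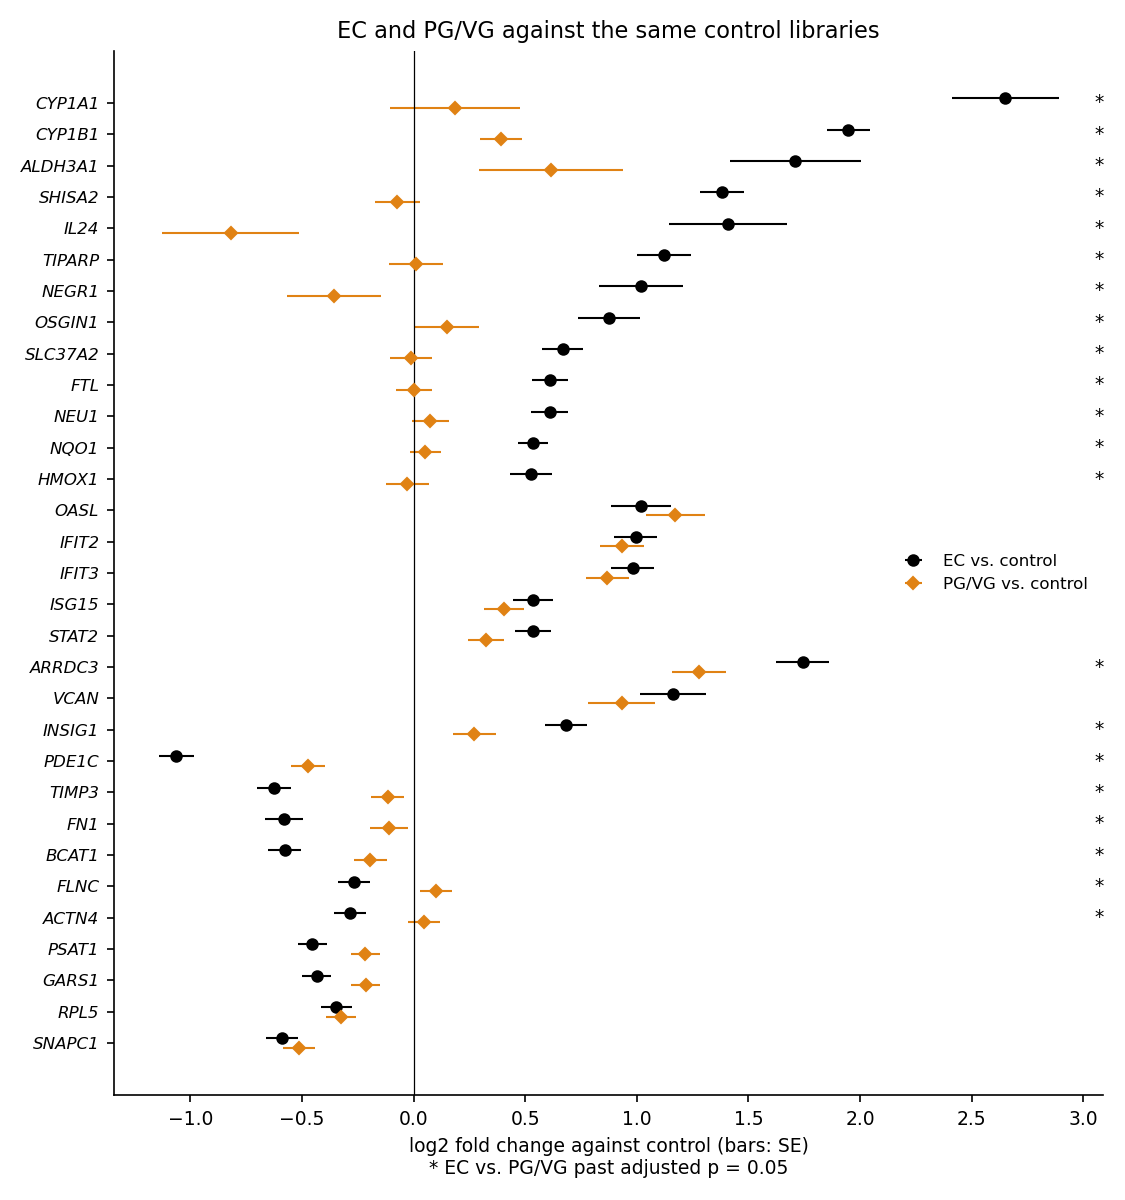
LFC against control, with its standard error, of 31 genes for EC (black) and PG/VG (orange), and a star where EC differed from PG/VG past adjusted p = 0.05. CYP1A1, SHISA2, TIPARP, FTL, NQO1 and HMOX1 lie near 0 in PG/VG, whereas OASL, IFIT2, IFIT3, RPL5 and SNAPC1 lie close together in both.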

How the data were processed

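RNA was measured in 9 BEAS-2B libraries. The authors used fastp for trimming, STAR for alignment to GRCh38.p12 and featureCounts (Subread 2.0.4) to count over exons, leaving out reads with several positions or genes. The deposited values are raw counts for 63187 genes, not adjusted for batch. The strand setting was not given in the sources used here, so reads of genes that overlap on opposite strands may not be separable.

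Groups and batch numbers came from the sample labels. The 16030 genes with 10 or more counts in 3 or more libraries were scaled by TMM and tested with edgeR 4.0.16 (R 4.3.3), using the robust quasi-likelihood test with group and batch as terms over all 9 libraries and Benjamini-Hochberg adjustment at 0.05. CPM are TMM-normalised unless stated, and the error after each LFC is its standard error. Batch differences used log2 CPM with a prior count of 2. Libraries of the same number deviated together from their group means (r = 0.334 to 0.707 in 9 pairs, against −0.539 to 0.426 in 18 pairs of different numbers). This set number 4 apart and did not tell 2 from 3, so the pairing rests on the batch numbers of the labels. Replicates come from 1 cell line, and p-values measure the spread between these libraries. The 9 counts columns differed by more than sampling noise within each group.

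Alternatives were RLE or library size scaling, other filters, thinned counts, no batch term, DESeq2 1.42.0, ComBat-Seq (sva 3.50.0) with DESeq2, a stricter threshold, the compared groups alone, leaving out each library, and, added after seeing the data, batches 2 and 3 alone. The fit was tested on simulated data. Genes and lists were chosen with earlier results of these data known. The genes named were the 15 smallest p in each direction, the 10 largest changes in each direction among genes past the threshold with the same direction in 3 batches and 20 or more counts in each library of the higher group, the 4 smallest p of each list with members of known role, the 10 smallest p of genes past the threshold against both control and PG/VG, and identity markers. Promoters came from RefSeq (GRCh38.p14) for 11426 of 16020 symbols, by the first listed start.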

Additional observations from a re-analysis of the deposited data

How the results depend on the processing

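Without the replicate block, 16 genes were higher and 0 lower in EC than in control in edgeR, with 1866 genes at an unadjusted p under 0.05, and 1 gene differed between EC and PG/VG. Batches 2 and 3 alone gave 679 higher, 548 lower and 93 that differed between EC and PG/VG. An adjusted p under 0.01 was met by 605 higher, 358 lower and 45 that differed between EC and PG/VG. With library size as the only scaling 486 genes were lower. ComBat-Seq with DESeq2 gave 1576 lower and 658 different between EC and PG/VG, a count that was 309 with no filter on low counts and 316 with the compared groups alone. Of all counts that the alternatives gave, 37 stayed within 1.5 times and 23 did not. The cause was not tested.

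Leaving out 1 library at a time gave 699 to 1293 genes higher, 464 to 943 lower and 33 to 209 different between EC and PG/VG. The number higher was 756 without control 2, 699 without control 3, 856 without EC 3 and 757 without EC 4, and the number lower was 464 without control 3 and 534 without EC 4. The count for EC vs. PG/VG was 33 without PG/VG 2, 62 without PG/VG 4, 47 without EC 2 and 209 without control 4. Fits without a library have fewer samples.

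Among the genes named and the alternatives run, 3544 values kept their direction and call, 262 lost the call, 38 gained one and 7 turned. Of the losses, 159 came without the block. Those that turned were not called in the fit reported: MKI67 ranged from −0.3202 to 0.0521 with 1 library left out, above 0 without control 4 or EC 2, and NFE2L2 from −0.0309 to 0.00439, above 0 without control 2 or 3. NFE2L2 also stood at 0.0583 with library size only, at 0.006 with no filter on low counts and at 0.000447 where each library had to hold 10 counts. For gene lists with 0 calls in 1 direction in edgeR, DESeq2 with batch also gave 0 there except for 1 hypoxia gene lower in EC, ComBat-Seq with DESeq2 gave up to 2, and up to 3 members had an unadjusted p under 0.05. Of the medians of the gene lists, 970 moved by less than the spread between replicates and 75 by more, 19 of these with library size only. That scaling put the median of all genes at 0.07. The 3 libraries per group and the shallower control libraries limit what can be detected among scarce genes.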

Other observations

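Processed pseudogenes, reverse-transcribed copies of mRNAs, made up 2.48% of the genes tested and 5.1% of those that fell in EC, with 44 falls and no rise. ANXA2P2, a copy of the annexin A2 gene, was at 42.2, 38.1 and 30.3 CPM in control and at 20.03, 22.4 and 14.7 CPM in EC (LFC −0.96 ± 0.09, adjusted p = 8.64e-07), and its parent ANXA2, a membrane-binding protein, had an LFC of −0.54. Reads of such copies cannot always be told from those of their parents.

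Antioxidant response elements, read as the letters TGACNNNGC or GCNNNGTCA on the other strand, stood in 12.2% of 11426 promoters, in 12.1% of those of genes that rose, in 5 of 17 promoters of NRF2 targets and in 1 of the 8 whose genes rose. Of the exon length of CYP1B1, 13.0% overlaps another gene, and its antisense lncRNA CYP1B1-AS1 rose too (LFC 1.74).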
